A study of Homo sapiens with 6 samples.

Results

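The gene NR3C1, which encodes the glucocorticoid receptor, and 8 well-known glucocorticoid target genes (FKBP5, TSC22D3, PER1, KLF9, ZBTB16, SGK1, ERRFI1 and CEBPD) were examined for open chromatin. These 9 genes, of 20007 protein-coding genes in GENCODE release 44, were chosen by name and not by a cutoff on a measured value. Earlier results of these data were known when they were chosen. For each gene, all open regions in the gene body and 20 kb on either side were read from the list of each library, and a region counted as lying at the start site when it covered the start of the canonical transcript. Another 67 genes of the pathway (receptor chaperones, coregulators, hormone metabolism, related receptors and other targets) were examined beside them.

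Chromatin accessibility was measured by ATAC-seq, which marks open DNA by the insertions of Tn5 transposase, in MCF10A cells, an established and non-tumorigenic human mammary epithelial line. Cells were kept for 30 min in a phosphate-free buffer and then for 30 min in the same buffer alone (control), with 50 μM of the Zn2+ chelator tris(2-pyridylmethyl)amine (TPA), or with 30 μM ZnCl2. There were 2 libraries in each of the 3 groups, and the open regions of each library were called by the authors with HMMRATAC. The growth medium of all groups contained hydrocortisone, a glucocorticoid, so no group was grown without the hormone and no group received it as a treatment. The listed contents of the buffer used in both 30 min steps include no hydrocortisone. Whether the receptor held hormone at the time of the assay was not measured. The study's text calls the replicates biological in one place and technical in another, so a p-value here measures only the spread between these libraries.

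The glucocorticoid receptor is a nuclear receptor whose DNA-binding domain is folded around Zn2+ ions. It waits in the cytoplasm in a complex with heat shock chaperones, enters the nucleus when cortisol or a synthetic steroid binds, and binds as a dimer to palindromic response elements that are often far from the start sites of its targets. In mammary epithelium and other tissues, FKBP5, TSC22D3 and PER1 are among the genes that it is best known to induce.

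The lists held no read counts, so depth is unknown, and the number of regions per list was the only measure of yield. It ranged from 18887 (ZnCl2 replicate 2) and 25031 (control replicate 1) to 44641 (control replicate 2), so yield differed between the replicates of a group. Each region carries a whole-number score of at least 30 that was used only to rank regions within their own list. The percentile of a region is the share of regions in the same list with a lower score. Start sites of 46.3% to 60.9% of protein-coding genes were open in a library. Of 10 basal mammary markers, 4, LAMB3, ITGB4 and SFN among them, had an open start site in all 6 libraries and only TP63 had one in none, while the 8 start sites of blood, endothelial and hepatocyte markers were open in none. Of the 3 fibroblast markers, only COL1A1 was open, in 1 library. Among 6 luminal markers, GATA3, FOXA1 and KRT18 were open in all 6 libraries, KRT8 in 3, and ESR1 and PGR in none.

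The hormone response element was searched as the 13-base core GNACANNNTGTNC, which reads the same on both strands, in the hg38 sequence of the 9 windows. There were 31 matches in 1153 kb, and 12 of them lay in regions that were open in at least 1 library. These 12 belonged to FKBP5 and ZBTB16 (4 each) and to TSC22D3, PER1, KLF9 and SGK1 (1 each). NR3C1 and CEBPD had no match in their windows, and the only match near ERRFI1 was not in an open region. The fuller consensus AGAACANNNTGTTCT, which contains the core, occurred once, in intron 5 of FKBP5. The following 41-base stretches are printed because they show which elements lay in open chromatin and in how many libraries. They are on the strand of the gene, with the core match in capitals.
FKBP5 intron 5, open in 4 libraries, chr6:35602069-35602109, minus strand: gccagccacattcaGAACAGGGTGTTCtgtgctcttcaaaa
FKBP5 intron 5, open in 0 libraries, chr6:35611058-35611098, minus strand: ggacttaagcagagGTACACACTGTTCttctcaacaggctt
FKBP5 upstream of the canonical start, open in 6 libraries, chr6:35728100-35728140, minus strand: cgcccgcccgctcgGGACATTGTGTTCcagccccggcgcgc
PER1 upstream, open in 6 libraries, chr17:8154447-8154487, minus strand: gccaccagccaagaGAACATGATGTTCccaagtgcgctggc
KLF9 upstream, open in 6 libraries, chr9:70420112-70420152, minus strand: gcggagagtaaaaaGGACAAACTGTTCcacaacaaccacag
TSC22D3 intron 1, open in 4 libraries, chrX:107716073-107716113, minus strand: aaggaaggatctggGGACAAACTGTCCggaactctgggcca
ZBTB16 intron 3, open in 5 libraries, chr11:114163003-114163043, plus strand: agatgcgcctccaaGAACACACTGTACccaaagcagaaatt
SGK1 intron 3, open in 4 libraries, chr6:134176011-134176051, minus strand: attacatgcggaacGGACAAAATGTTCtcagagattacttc

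Core matches were more frequent in the open regions of the 9 genes than in open regions at large. Overlapping regions of the 6 libraries were merged, and 47 of 49527 merged regions lay in the 9 windows. Of these 47 regions, 10 (21.3%) held a core match, against 4.14% of all merged regions. Since the regions of these genes were wider (median 2650 bp against 1830 bp), the matches were also counted per length, and there were 7.37 per 100 kb against 1.63 per 100 kb. In the central 500 bp, where all regions have the same length, 2 of 47 (4.26%) held a match against 0.905% of all regions. GC content was close, 48.1% ± 7.05 (SD, n = 47) against 47.8% ± 7.77 (SD, n = 49527). These genes are known for such elements, so the counts describe the gene choice and are no test of receptor binding, which was not measured.

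The NR3C1 start site lies in a broad GC-rich open region that was present in all 6 libraries. It ranked lower in its list with TPA than in the control. The region was 6220 and 6440 bp wide with TPA, 4280 and 6550 bp in the control and 4360 and 4290 bp with ZnCl2, and it covered 9 to 11 of the 16 annotated NR3C1 starts. Its percentile was 55.2 and 51.8 with TPA, 75.5 and 86.1 in the control and 86.1 and 60.5 with ZnCl2. Both TPA libraries were thus below all 4 other libraries, and the share of all genes with this order was not computed. The difference between TPA and control was -27.3 percentile points (53.5 ± 2.39 against 80.8 ± 7.44, SD, n = 2), with p = 0.33 in a two-sided exact permutation test, the smallest p that 2 against 2 libraries allow. Against ZnCl2 the difference was -19.8 points, with the same exact p of 0.33. It was -7.0 without ZnCl2 replicate 1 and -32.6 without ZnCl2 replicate 2. ZnCl2 and control libraries overlapped.

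The rank of NR3C1 was also lower with TPA when other sets of regions were ranked. Among only the regions that cover a protein-coding start site, its percentile was 33.4 and 25.8 with TPA, 58.4 and 62.8 in the control and 67.5 and 44.1 with ZnCl2. When each list was cut to its 18887 highest scores, the region was at percentile 14.8 in TPA replicate 1 and absent in TPA replicate 2, and at 67.6 and 67.0 in the control. It stood in both cases below both control and both ZnCl2 libraries. Both scales rank the same scores again, so they are no independent support. In the equal lists, both TPA libraries were below both controls for 34.0% of all genes compared and above them for 11.6%. Among start-site regions these shares were 20.2% and 21.4%. In the full lists, the median percentile over all start sites was 70.3 and 74.7 with TPA against 69.2 and 80.1 in the control, and these values overlapped between the groups. The 5′-most annotated start of NR3C1, in a promoter with 34.7% GC and 0 GC boxes, was open in no library.

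**Figure D1:**
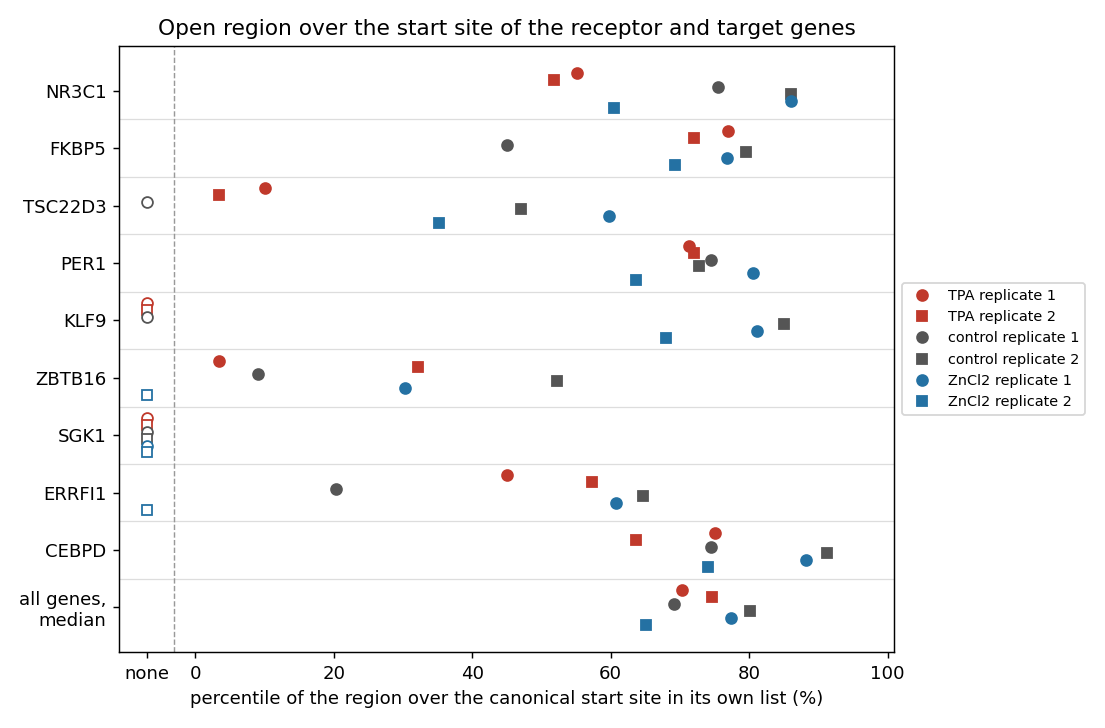
Percentile of the open region over the canonical start site in its own list, for each gene (rows) and library (color, treatment; circle, replicate 1; square, replicate 2). Open symbols at the left are libraries with no region over the start, and the last row is the median over all protein-coding genes with an open start. Both TPA libraries are left of the control libraries for NR3C1 (55.2 and 51.8 against 75.5 and 86.1).

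The 3 genes whose start-site percentiles were nearest to those of NR3C1, by the sum of absolute differences over the 6 libraries, were LPGAT1 (13.6 points), TANC1 (13.7) and EP400 (14.8). LPGAT1 was at 55.2 and 50.3 with TPA, 66.1 and 85.4 in the control and 85.8 and 58.8 with ZnCl2. These genes were named by rank alone.

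Promoters of 7 of the 9 genes were in the RefSeq table (GRCh38.p14), each with 250 bases before and 50 after a start. The GC box GGGCGG, the binding sequence of SP and KLF zinc-finger factors, was searched on both strands. It was present in 44.6% of 27305 promoters of that length, and the 13-base receptor core in 0.388%. None of the promoters of the 7 genes held the receptor core. The 4 promoters printed here, on the gene strand with GC boxes in capitals, are examples of open, closed and partly covered starts. The NR3C1 promoter had 3 GC boxes and 82.3% GC. The canonical SGK1 promoter had 0 GC boxes and 38.0% GC, and the one downstream had 6 boxes and 73.3% GC. The KLF9 promoter had 0 boxes and 32.7% GC. Starts without a GC box were also open. The promoter at the 5′ end of FKBP5, with 0 boxes and 55.7% GC, was open in 6 libraries. A TSC22D3 promoter in intron 1 with 0 boxes and 49.7% GC was open in 4. The printed examples are thus no test of a link between GC boxes and open starts.
NR3C1 canonical start, open in 6 libraries, chr5:143403637-143403936, minus strand: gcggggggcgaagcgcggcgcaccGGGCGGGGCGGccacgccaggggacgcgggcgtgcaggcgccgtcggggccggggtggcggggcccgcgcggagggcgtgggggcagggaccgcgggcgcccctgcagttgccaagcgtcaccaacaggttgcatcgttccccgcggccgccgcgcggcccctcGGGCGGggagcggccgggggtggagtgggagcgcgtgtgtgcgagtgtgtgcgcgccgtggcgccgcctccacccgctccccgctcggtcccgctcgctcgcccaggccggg
KLF9 canonical start, open in 3 libraries, chr9:70414608-70414907, minus strand: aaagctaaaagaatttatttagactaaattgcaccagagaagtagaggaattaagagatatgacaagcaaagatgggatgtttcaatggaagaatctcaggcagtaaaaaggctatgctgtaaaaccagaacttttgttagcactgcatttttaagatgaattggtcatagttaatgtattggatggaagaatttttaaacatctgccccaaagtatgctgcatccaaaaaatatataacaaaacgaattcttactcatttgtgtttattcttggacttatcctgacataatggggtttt
SGK1 canonical start, open in 0 libraries, chr6:134318063-134318362, minus strand: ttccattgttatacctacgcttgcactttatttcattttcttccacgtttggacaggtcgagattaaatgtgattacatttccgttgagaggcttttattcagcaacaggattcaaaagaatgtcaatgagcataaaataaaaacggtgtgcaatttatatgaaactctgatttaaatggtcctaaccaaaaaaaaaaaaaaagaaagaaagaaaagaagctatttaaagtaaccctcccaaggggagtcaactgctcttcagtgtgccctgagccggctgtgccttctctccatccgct
SGK1 downstream start, open in 6 libraries, chr6:134174817-134175116, minus strand: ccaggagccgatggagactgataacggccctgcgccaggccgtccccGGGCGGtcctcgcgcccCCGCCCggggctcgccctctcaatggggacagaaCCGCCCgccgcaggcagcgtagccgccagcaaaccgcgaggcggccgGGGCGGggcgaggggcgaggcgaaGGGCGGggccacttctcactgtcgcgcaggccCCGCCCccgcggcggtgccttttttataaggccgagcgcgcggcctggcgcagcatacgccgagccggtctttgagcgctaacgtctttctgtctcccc

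Away from the start site, the NR3C1 window held 7 other merged regions. Those in intron 2 (centered 53360 bp downstream of the start) and around exons 3 and 4 (91255 bp) were open in all 6 libraries. A region beyond the 3′ end of the gene (141435 bp) was open in every library except ZnCl2 replicate 2. A 600 bp region in intron 2, chr5:143355572-143356171, was open in both TPA and both control libraries and in neither ZnCl2 library. Its percentile was 21.2 and 54.6 with TPA and 24.2 and 45.6 in the control, so it was in the lower or middle part of each list that held it. No region in the window was gained or lost with TPA.

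FKBP5 encodes a cochaperone that lowers the affinity of the receptor for hormone and is itself induced by the receptor, which closes a feedback loop. Its canonical start was open in all 6 libraries. The percentile was 76.9 and 72.1 with TPA, 45.1 and 79.6 in the control and 76.8 and 69.3 with ZnCl2. The 2 control libraries were both the lowest and the highest of the 6, so the groups overlapped. A second open region, centered at -38065 bp and covering the 5′ end of the longest FKBP5 transcript, was also present in all 6 libraries and held a core match.

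The region with the full consensus element, chr6:35601031-35604240 in intron 5, was open in 4 libraries. It was 1720 and 2220 bp wide with TPA and 2060 and 3210 bp in the control, and no ZnCl2 library held a region there. Its percentile was 15.9 and 50.3 with TPA and 24.2 and 44.2 in the control. By score it was number 29211 and 19946 in the TPA lists and 18101 and 24281 in the control lists. The lists without it had 38069 (ZnCl2 replicate 1) and 18887 regions (ZnCl2 replicate 2), and those with it had 35902 and 41376 (TPA) and 25031 and 44641 (control). The part of list length in this was not tested. In lists of 18887 regions it was kept only in control replicate 1, at the lowest score that was kept, and was no longer a difference between groups. The region around another core match, at -43110 bp, was missing from ZnCl2 replicate 2 alone.

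**Figure D2:**
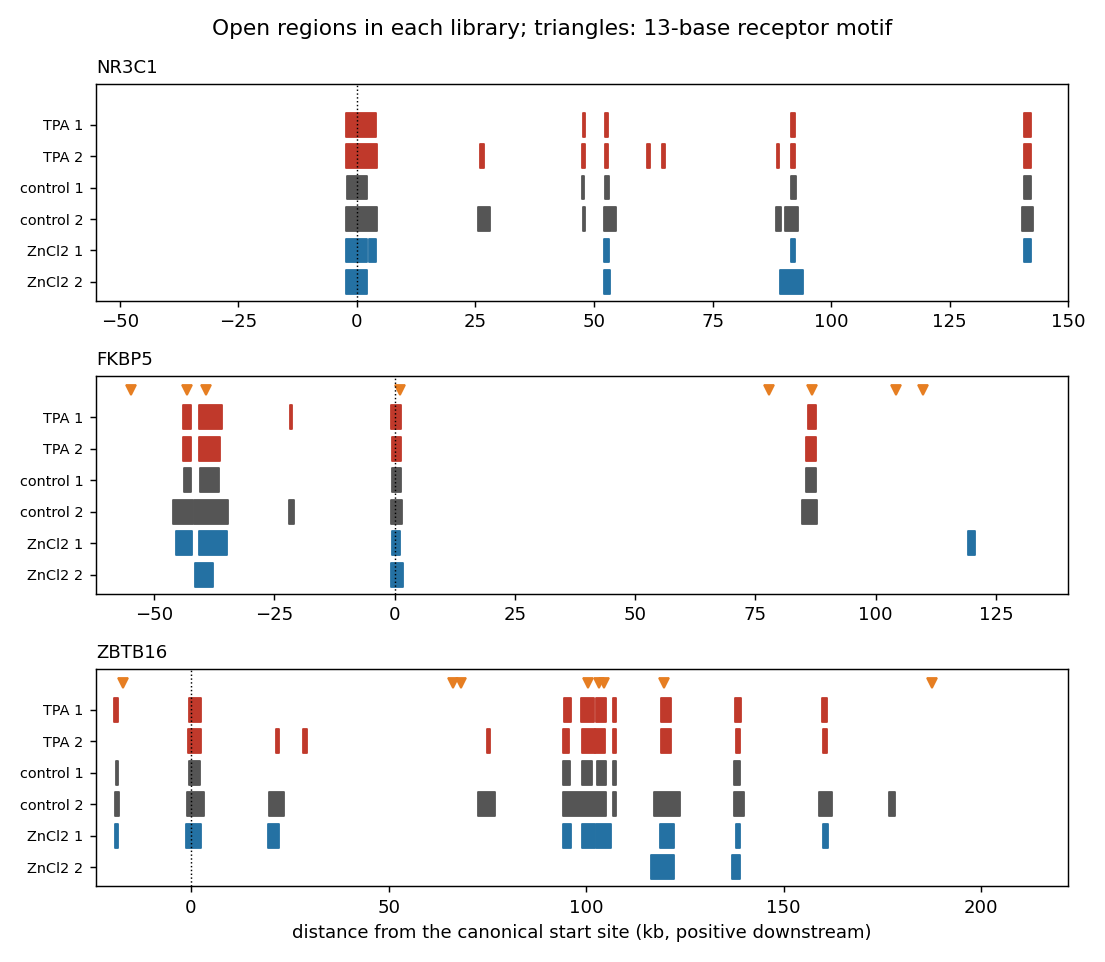
Open regions of NR3C1, FKBP5 and ZBTB16 in each of the 6 libraries, as distance from the canonical start site in kb (dotted line, positive values downstream); triangles mark matches to the 13-base core GNACANNNTGTNC. In FKBP5 the region near 86280 bp, under a triangle, is drawn in both TPA and both control libraries and in neither ZnCl2 library.

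TSC22D3 encodes GILZ, a leucine zipper protein that mediates anti-inflammatory effects of glucocorticoids. The region at its canonical start ranked lower with TPA than with ZnCl2. The percentile was 10.1 and 3.39 with TPA, 47.0 in control replicate 2 and 59.7 and 35.2 with ZnCl2, and control replicate 1 had no region at the start. The TPA and ZnCl2 libraries did not overlap and differed by -40.8 points (6.74 ± 4.73 against 47.5 ± 17.3, SD, n = 2), with an exact permutation p of 0.33. Among start-site regions only, they differed by -22.3 points. The control spanned both, since one replicate had no region and the other was close to the ZnCl2 values. The start of the short form from which GILZ is made, in intron 1 of the canonical transcript, lay in a region open in both TPA libraries, control replicate 2 and ZnCl2 replicate 1. That region ranked low in every list that held it, with percentiles of 0 and 18.1 with TPA, 9.29 in the control and 23.6 with ZnCl2. It held a core match.

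Few regions were called near TSC22D3 in some libraries. Control replicate 1 and ZnCl2 replicate 2, the 2 shortest lists, held 1 region each in the window, while the other 4 libraries held 5 to 7. The part of yield in this was not tested.

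PER1 encodes a core clock repressor that glucocorticoids induce. Its start was open in all 6 libraries, at percentiles of 71.3 and 72.1 with TPA, 74.5 and 72.7 in the control and 80.6 and 63.6 with ZnCl2. The TPA values were below both control values by -1.91 points on average (71.7 ± 0.547 against 73.6 ± 1.23, SD, n = 2; exact permutation p = 0.33). This order turned among start-site regions, where TPA was on average 1.95 points above the control, and for the highest region over any annotated start, where it was 2.47 points above. The core match at -2063 bp was in open chromatin in every library. In TPA and in control replicate 1 the element lay in a region of its own, at percentiles of 75.1, 58.6 and 60.8. In control replicate 2 and both ZnCl2 libraries it lay in one region with the start site, 4560 to 5930 bp wide. The highest-scoring region of the window, at an annotated start further upstream, was at percentile 85.1 to 96.7.

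KLF9, a zinc-finger repressor, had exactly 2 open regions in every library. One was centered at -5193 bp, held a core match and was at percentile 71.3 and 78.2 with TPA, 88.8 and 94.8 in the control and 88.5 and 71.8 with ZnCl2. TPA values were below both control values and overlapped those of ZnCl2. The other began at or just downstream of the start site and extended into intron 1. It covered the start base in control replicate 2 and both ZnCl2 libraries, at percentiles of 85.0, 81.2 and 68.0. In TPA replicates 1 and 2 and in control replicate 1 it began 127, 87 and 137 bp downstream of that base, at percentiles of 89.6, 87.9 and 73.3. Whether the start counted as open thus turned on the position of one edge of this region. The region itself was in the upper part of every list, and its 2 TPA percentiles were above those of all 4 other libraries. The share of all regions that separate in such ways was not computed for either KLF9 region.

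ZBTB16 encodes PLZF, a zinc-finger repressor. Its start was open at percentiles of 3.39 and 32.2 with TPA, 9.08 and 52.3 in the control and 30.3 in ZnCl2 replicate 1, and was not open in ZnCl2 replicate 2. The groups overlapped. The window held 11 merged regions, most of them in introns, and 2 to 11 regions per library. The widest, 12330 bp around exon 3, held 3 core matches and was open in every library except ZnCl2 replicate 2, where none of the 18887 regions reached it. Next to it, a 980 bp region in intron 3, chr11:114166391-114167370, was open in both TPA and both control libraries and in neither ZnCl2 library. It was among the lowest scores of the lists that held it, at percentiles of 0 and 12.6 with TPA and 16.8 and 6.37 in the control.

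SGK1 encodes a kinase that regulates sodium channels and cell survival. Its canonical start, that of the longest form, was open in none of the 6 libraries. The downstream start with 6 GC boxes, which lies in intron 3 of that form, was open in all 6, at percentiles of 60.7 and 57.3 with TPA, 56.8 and 75.3 in the control and 76.8 and 25.3 with ZnCl2. The ZnCl2 libraries were the highest and the lowest of the 6. In 4 libraries the region at this start also reached the core match in intron 3. A pair of regions in intron 1, 21947 and 29362 bp from the canonical start, was open in both TPA libraries and control replicate 2 and in no ZnCl2 library.

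ERRFI1 encodes MIG6, a feedback inhibitor of the EGF receptor. Its start was open at percentiles of 45.1 and 57.3 with TPA, 20.4 and 64.7 in the control and 60.8 in ZnCl2 replicate 1, with no region in ZnCl2 replicate 2. The control again spanned the TPA values. A region centered 21608 bp from the start lay beyond the 3′ end of the canonical transcript and partly inside the annotated gene body. It was open in all 6 libraries and ranked higher, at percentiles of 93.1 and 92.8 with TPA, 87.7 and 93.4 in the control and 78.6 and 65.1 with ZnCl2. The ZnCl2 values were below both control and both TPA values, and the share of all regions that separate in this way was not computed.

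**Figure D3:**
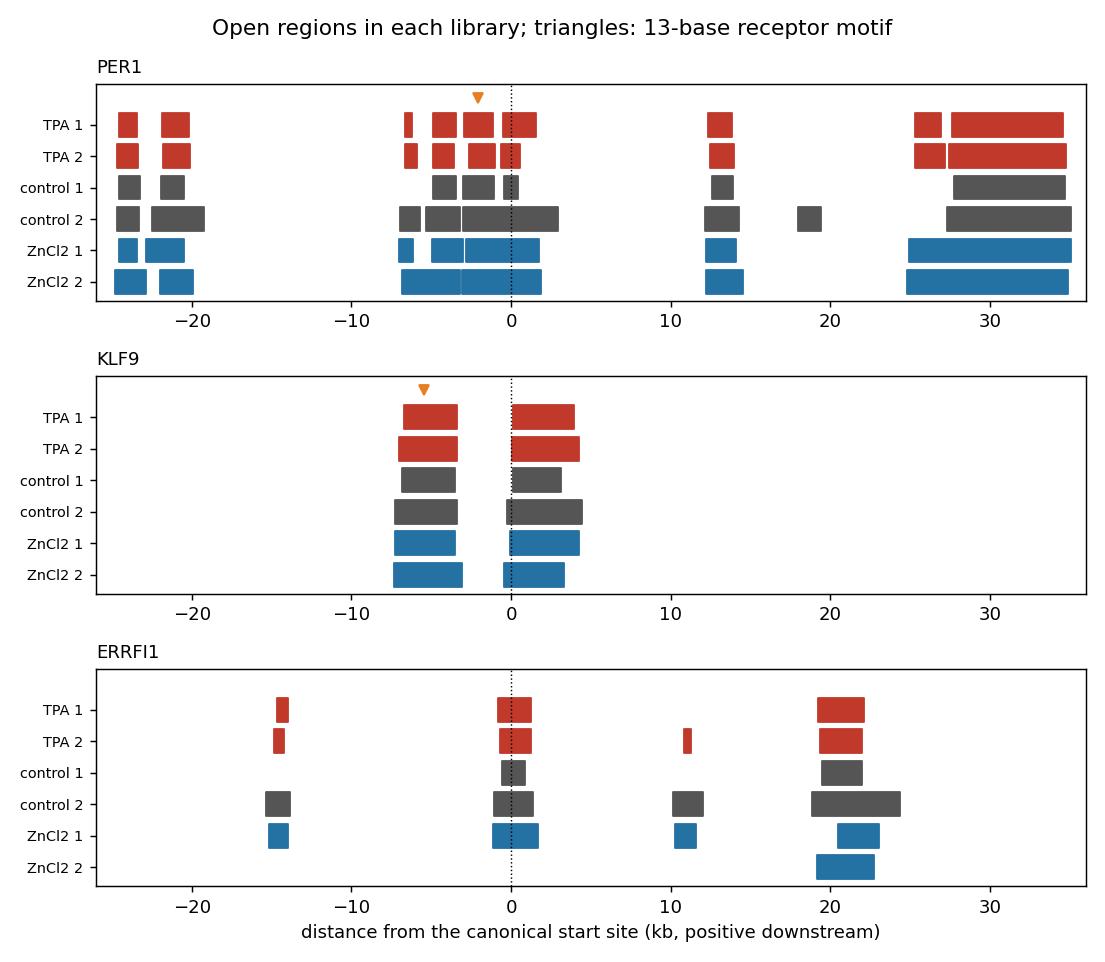
Open regions of PER1, KLF9 and ERRFI1 in each of the 6 libraries, as distance from the canonical start site in kb (dotted line, positive values downstream); triangles mark core matches. The KLF9 region at the start begins 87 to 137 bp downstream of it in TPA and in control replicate 1, and upstream of it in the other 3 libraries.

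CEBPD encodes a bZIP transcription factor of the acute phase and of epithelial growth arrest. Its single exon lay in an open region in every library, which was 4180 and 4300 bp wide with TPA, 4080 and 5840 bp in the control and 3350 and 5500 bp with ZnCl2. Its percentile was 75.1 and 63.6 with TPA, 74.5 and 91.3 in the control and 88.2 and 74.0 with ZnCl2. The TPA and control values overlapped on this scale. In lists of 18887 regions they did not, with 52.6 and 20.2 with TPA against 66.1 and 79.4 in the control.

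Over the 9 genes, the number with an open canonical start was 7 and 7 with TPA, 6 and 8 in the control and 8 and 6 with ZnCl2. All 3 groups had a mean of 7 (SD 0, 1.41 and 1.41, n = 2; exact permutation p = 1.00 for each comparison). NR3C1, FKBP5, PER1 and CEBPD were open in all 6 libraries, which is 44.4% of the 9 genes against 43.0% of all protein-coding genes. The median percentile of those with an open start was 55.2 and 57.3 with TPA, 59.8 and 76.2 in the control and 78.7 and 65.8 with ZnCl2. These medians are not over the same genes. Besides SGK1, KLF9 is left out in both TPA libraries, KLF9 and TSC22D3 in control replicate 1, and ZBTB16 and ERRFI1 in ZnCl2 replicate 2. Over all genes the medians were 70.3 and 74.7, 69.2 and 80.1, and 77.4 and 65.1.

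A gene was counted as higher or lower without overlap when both libraries of one group were above or below both of the other, with no region ranked below any percentile. Of the 9 genes, 8 had an open start in at least 1 library and could be compared, as could 12636 protein-coding genes, over which each share of all genes is given. With TPA against control, 0 of 8 were higher (10.5% of all genes were) and 2 of 8, NR3C1 and PER1, were lower (19.1% of all genes). With ZnCl2 against control, 0 were higher (2.00% of all genes) and 0 were lower (10.8% of all genes). With TPA against ZnCl2, 0 were higher (21.5% of all genes) and 3, NR3C1, TSC22D3 and KLF9, were lower (14.2% of all genes). KLF9 entered that count through the start base that its region missed by 127 and 87 bp with TPA, and the region itself ranked higher with TPA (89.6 and 87.9) than with ZnCl2 (81.2 and 68.0). The counts with TPA against control are close to the share over all genes.

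These counts depended on how regions were ranked. With 18887 regions per list, 7 members could be compared. NR3C1 and CEBPD were lower with TPA than in the control (34.0% of all genes were), FKBP5 and TSC22D3 were higher with ZnCl2 than in the control (21.3% of all genes), and NR3C1, TSC22D3, PER1, KLF9 and CEBPD were lower with TPA than with ZnCl2 (39.9% of all genes). Among start-site regions only, NR3C1 and CEBPD were lower with TPA (20.2% of all genes), TSC22D3 was higher with ZnCl2 (9.77% of all genes), and NR3C1, TSC22D3, KLF9 and CEBPD were lower with TPA than with ZnCl2 (19.1% of all genes). Over all genes, the higher share of non-overlapping genes was 35.6%, 25.4% and 51.4% for TPA against control on the 3 scales (all regions, equal number, start-site regions), 15.6%, 56.4% and 37.3% for ZnCl2 against control, and 60.1%, 27.9% and 60.3% for TPA against ZnCl2. Of the members that could be compared, 0 were higher with TPA on the scale of equal number (11.6% of all genes against the control and 15.4% against ZnCl2) and 0 among start-site regions (21.4% and 29.0%). For KLF9, which has no region over its start base with TPA, these calls follow the edge of the region and not its rank, as described above.

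Of the 47 merged regions in the windows, 15 (31.9%) were open in all 6 libraries, against 32.0% of all merged regions. With TPA, 0 were open in both treated and neither control library (2.04% of all merged regions were) and 0 the reverse (0.703%). With ZnCl2, 0 were gained (0.172% of all merged regions) and 3 (6.38%) were lost (1.73%), the regions of NR3C1, FKBP5 and ZBTB16 described above. Their GC content was 38.8% ± 3.71 (SD, n = 3), and the 855 regions lost with ZnCl2 genome-wide had 41.3% ± 5.05 (SD, n = 855). Between the treatments, 6 regions were open in both TPA and neither ZnCl2 library (9.73% of all merged regions), namely these 3, the pair in SGK1 and a region in intron 1 of TSC22D3, and 0 were open only with ZnCl2 (0.991%). Lists of 18887 regions gave 28 merged regions in the windows. None of the 3 was called there, and 2 others were open in both control and neither ZnCl2 library (3.64% of all merged regions), the one beyond the 3′ end of NR3C1 and the wide one in ZBTB16. On that scale 1 region was gained with ZnCl2, at the start of TSC22D3 (3.20% of all merged regions), and 1 with TPA, upstream of ERRFI1 (3.79%). In the full lists control replicate 2 held a region at both places, at percentiles of 47.0 and 48.4, so neither was gained there.

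The windows held 43 and 49 regions with TPA, 30 and 48 in the control and 41 and 19 with ZnCl2. They held 82.1 and 84.7 kb of open sequence with TPA, 58.6 and 142 kb in the control and 96.3 and 67.3 kb with ZnCl2. The differences from the control were -17.0 kb with TPA and -18.6 kb with ZnCl2 (exact permutation p = 1.00 each), smaller than the SD of the control (59.1 kb, n = 2). As a share of all open sequence the windows took 0.156% and 0.109% with TPA, 0.164% and 0.151% in the control and 0.148% and 0.152% with ZnCl2. These shares did not separate ZnCl2 from the control beyond the spread between replicates (exact permutation p = 0.667), and TPA replicate 2 was below all other libraries.

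**Figure D4:**
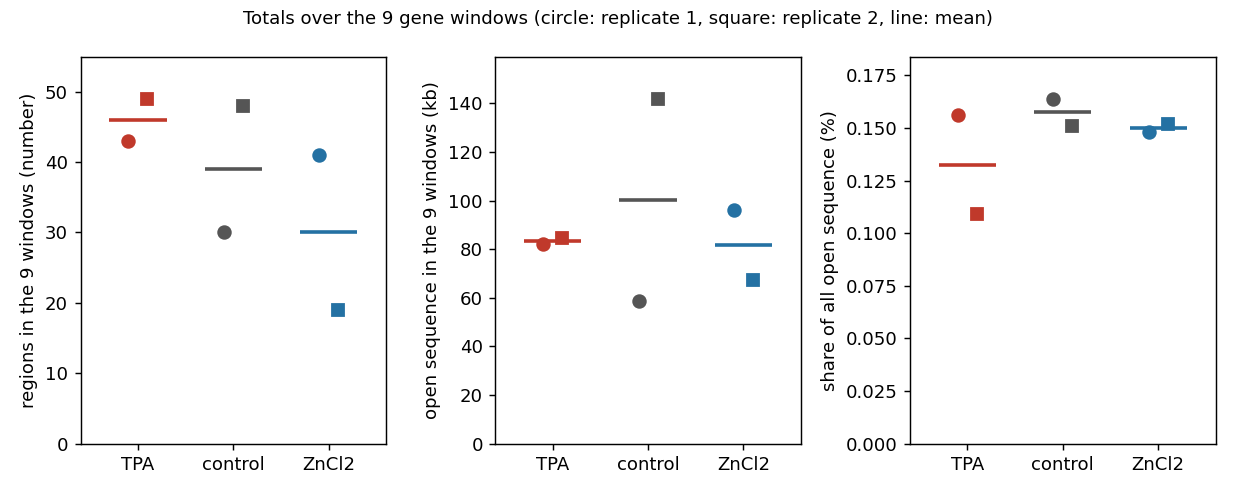
Number of open regions, open sequence in kb and share of all open sequence in percent, summed over the 9 gene windows, for each library (circle, replicate 1; square, replicate 2) with the group mean as a line; all axes start at 0. The 2 control libraries, at 58.6 and 142 kb, lie on either side of all others in open sequence.

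Of the 67 other pathway genes, 42 had an open start in all 6 libraries and 9 in none. The closed ones included the liver and fat genes TAT, PCK1, IGFBP1 and CIDEC, the hormone-handling genes HSD11B1 and ABCB1, and the receptors PGR and ESR1. The mineralocorticoid receptor gene NR3C2, the closest relative of NR3C1, was open in all 6 libraries at percentiles of 88.8 to 97.9. Of 58 genes that could be compared, 10 were higher and 17 lower with TPA than in the control (10.5% and 19.1% of all genes were). With ZnCl2, 1 was higher and 10 were lower than in the control (2.00% and 10.8% of all genes). Between the treatments, 17 were higher and 10 lower with TPA than with ZnCl2 (21.5% and 14.2% of all genes). With 18887 regions per list, 53 could be compared. On that scale 10 were higher and 25 lower with TPA than in the control (11.6% and 34.0% of all genes), 12 higher and 11 lower with ZnCl2 (21.3% and 16.4%), and 10 higher and 21 lower with TPA than with ZnCl2 (15.4% and 39.9%).

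Among the 8 receptor chaperones, all of which could be compared, 1 was higher and 2 were lower with TPA (10.5% and 19.1% of all genes), and 3 were lower with ZnCl2 (10.8% of all genes). HSP90AB1, a subunit of the chaperone that holds the receptor, was at 53.7 and 62.4 with TPA, 77.8 and 84.5 in the control and 86.1 and 72.9 with ZnCl2, so both TPA libraries were the lowest. PTGES3, the p23 cochaperone, was at 67.5 and 35.2 with ZnCl2 against 72.0 and 85.4 in the control. Among 13 coregulators, again all compared, 0 were higher and 5 were lower with TPA (10.5% and 19.1% of all genes). NRIP1, a corepressor gene, was at 33.1 and 32.2 with TPA, 34.2 and 69.8 in the control and 72.4 and 58.8 with ZnCl2. Both TPA values of NRIP1 lay below the other 4 libraries, but only just below control replicate 1. The share of all genes with both TPA libraries lowest, as for HSP90AB1 and NRIP1, was not computed.

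Of the 4 genes of hormone metabolism, 2 had an open start in some library, and both were lower with TPA (19.1% of all genes). H6PD, which supplies the cofactor for cortisol regeneration, was at 50.4 and 57.3 with TPA against 87.7 and 76.6 in the control. Of the 38 other targets, 34 could be compared, and 9 were higher and 8 lower with TPA (10.5% and 19.1% of all genes). GADD45B, a stress gene, was at 74.2 and 72.1 with TPA, 34.2 and 42.8 in the control and 52.5 and 21.6 with ZnCl2. PHLDA1 was at 63.4 and 72.1 with TPA, below the control (93.6 and 94.8), and NFIL3, a bZIP repressor, at 55.2 and 32.2 against 72.0 and 71.3. STOM, the stomatin gene, was lower with both treatments, at 43.4 and 45.4 with TPA and 48.4 and 4.90 with ZnCl2 against 64.4 and 77.2 in the control. The metallothionein gene MT1X was at 59.7 in ZnCl2 replicate 1 and closed in replicate 2, against 66.1 and 75.3 in the control. On the scale of all regions, MT2A was the only gene of the 67 that was higher with ZnCl2, at 82.9 and 81.1 against 70.7 and 79.6 in the control. It was also higher with TPA, at 80.8 and 86.5, and it was chosen for mention after its values were seen.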

How the data were processed

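Reads were trimmed with BBDuk by the authors, aligned to hg38 with HISAT2 2.1.0, and used for HMMRATAC calls of open regions, library by library. FastQC 0.11.8 and SAMtools 1.8 are also named in the submitters' processing notes. The version of HMMRATAC and the kind of score are not given in the sources used here. The deposited score of each region was used only for its rank within a list. The authors' later merging, blacklist filter and read counting were not repeated.

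Only regions on the assembled chromosomes were kept. Start sites and windows came from GENCODE release 44 (hg38), an overlap was at least 1 bp, and motifs were searched in the hg38 sequence. Group means were compared by two-sided exact permutation tests of 2 against 2 libraries, for which 0.33 is the smallest p. Beyond the 9 genes, up to 10 pathway genes were named, those without overlap on all regions and on an equal number of regions with the largest difference, and the 3 genes nearest to NR3C1. A few genes of these lists are not reported here. The genes, lists and rules were chosen with earlier results of these data known. Alternatives were another start site, window, overlap or list, leaving out each library, and the replicate number as a block. Procedures were tested on simulated data. The work was done in Python 3.11.15 (pandas 2.3.3, NumPy 2.4.6, pysam 0.24.0, SciPy 1.17.1) and drawn with Matplotlib 3.10.9.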

Additional observations from a re-analysis of the deposited data

How the results depend on the processing

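With 2 libraries per group, list yield and treatment cannot be told apart within a replicate, and depth is unknown. The cause of each change below was not tested. With 18887 regions per list, ZnCl2 had 1.5 more members with an open start than the control and TPA -2.50 relative to ZnCl2, where both had been 0, and the upper 50% of each list gave -1.5. On that equal scale 2 members were higher with ZnCl2 and 5 were lower with TPA than with ZnCl2, 1 region was gained with either treatment, 3 were open only with TPA against ZnCl2 and 1 the reverse, and TPA minus ZnCl2 turned to -9.75 kb. Among start-site regions 1 member was higher with ZnCl2. With the start at the 5′ end of the gene, 1 member was higher and 0 were lower with TPA than in the control, and 1 was lower than with ZnCl2. Any annotated start, chosen after seeing the data, gave 1 higher and 1 lower with TPA, 1 lower with ZnCl2 and 1 higher with TPA than with ZnCl2. PER1 turned to 2.47 points above the control for both of these starts and to 1.95 among start-site regions. The share over all genes was not computed for either of these other start sites. Windows of 50 kb gave 1 region gained with TPA (2.04% of all merged regions) and 10 open only with TPA against ZnCl2 (9.73%).

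With 1 library left out, a call without overlap is easier to reach for any gene or region. The shares over all genes and all merged regions were not computed for these settings, so the counts describe only how the results move. Leaving out 1 library gave, for TPA against control, 0 to 3 members higher, 2 to 8 lower (8 without control replicate 1), 0 to 10 regions gained (10 without control replicate 2), 0 to 3 lost and -58.8 to 24.8 kb (24.8 without control replicate 2). For ZnCl2 against control it gave 0 to 3 higher, 0 to 5 lower, 0 to 2 gained, 3 to 11 lost (11 without control replicate 1, 10 without ZnCl2 replicate 1) and -60.3 to 23.2 kb (23.2 without control replicate 2). For TPA against ZnCl2 it gave 0 to 4 higher, 3 to 6 lower, 6 to 17 regions only with TPA (17 without ZnCl2 replicate 1), 0 to 2 only with ZnCl2 and -12.9 to 16.0 kb. NR3C1 was below the control with TPA in each of these. This had to follow, since both TPA values lie below both control values, and it is no further support.

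Whether same-numbered libraries belong together is not known, and the following correlations cannot decide it. Each group has only 2 libraries, and list length differed between them. Deviations of same-numbered libraries over 8610 start sites correlated at 0.170 for TPA and control, -0.460 for ZnCl2 and control and -0.134 for TPA and ZnCl2. The replicate block gave 3 members lower with TPA than in the control, and 1 higher and 4 lower with TPA than with ZnCl2, with no change in the other counts. Crossed pairing, added after seeing the data, gave 1 higher and 3 lower for ZnCl2 against control and 1 higher and 3 lower for TPA against ZnCl2. The share over all genes was not computed for the block or for crossed pairing.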
